A study of Mus musculus with 4 samples.

Results

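The genes described here encode 10 transcription factors that mark or pattern the fibroblast lineage of the dermis: Prrx1, Prrx2, Twist1, Twist2, Tbx15, Tbx18, En1, Tcf4, Runx1 and Runx2. They were taken as a fixed list of names, and every ATAC-seq peak whose midpoint lay inside one of these genes or within 100000 bp of it was counted as a member. This gave 628 of 433013 peaks in the Sod2+/+ control, 654 of 585165 in the Sod2-/- library, 485 of 340240 with vehicle and 433 of 347438 with rotenone, or 2200 of 1705856 peaks in all. ATAC-seq maps open chromatin by letting the Tn5 transposase insert sequencing adapters into accessible DNA.

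All 4 libraries came from dermal fibroblasts of C57BL/6 mice, with 1 library per group. The first comparison set fibroblasts with a conditional knockout of Sod2, genotype Sod2-/-, against Sod2+/+ control fibroblasts; Sod2 encodes the superoxide dismutase of mitochondria. The second set Sod2+/+ fibroblasts treated with rotenone against Sod2+/+ fibroblasts given vehicle. Rotenone blocks complex I of the respiratory chain, and the labels give its dose as 250 µM. The labels attach 100 days to each sample without saying what the days count, and the sources used here do not give the driver or extent of the Sod2 deletion, the duration of rotenone or any pooling of animals. Peaks at Sod2 therefore check nothing about the deletion. Vehicle against control compares a pair alike in Sod2 genotype and free of rotenone, and it shares a library with each of the other comparisons. With no second library in any group there is no replicate check and no p-value, and intervals cover counting error only.

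Dermal fibroblasts descend from several embryonic sources, and each source carries its own set of transcription factors. PRRX1 and PRRX2 are paired-related homeodomain proteins of limb, facial and dermal mesenchyme. TWIST1 and TWIST2 are basic helix-loop-helix proteins that hold mesenchymal precursors in an undifferentiated state and bind E-boxes as dimers with E-proteins such as TCF4, which is a different protein from the Wnt effector TCF7L2. TBX15 and TBX18 are T-box proteins, the first known for setting the dorsoventral border of coat colour and the second as a marker of dermal papilla precursors. EN1 is a homeodomain protein that marks a scar-forming fibroblast lineage of dorsal skin. RUNX1 and RUNX2 are Runt-domain proteins, best known as regulators of blood stem cells and of bone.

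Peak strength was read within each list. Peaks were ranked by the −log10 p that the authors' peak caller gave, so that rank 1 is the highest, and the 30000 highest ranked peaks of a list are called strong. The fold of a peak is its enrichment over the local background of its own library and is also the caller's value. Read depth is unknown. The lists differ as a whole: strong peaks had a median fold of 6.78 in control, 5.49 in Sod2-/-, 7.13 with vehicle and 5.99 with rotenone, and a median width of 376, 293, 349 and 277 bp. A peak of a bulk library cannot tell fewer cells with an open site from a site that is less open in each cell. The label was set beside cell type markers, but without the share of all genes in the same window, so the counts cannot check it. Of 10 fibroblast markers, 5 to 7 had a strong peak in the gene or within 1000 bp of it. Col1a2, Pdgfra, Dpt, Fbln1 and Vim had one in all 4 libraries, while Col1a1, Col3a1 and Lum had 0. Markers of other cell types were not all closed: 4 to 5 of 8 keratinocyte, 2 to 3 of 7 endothelial, 1 to 3 of 6 myeloid, 2 to 4 of 6 melanocyte and Schwann cell, 0 to 1 of 5 skeletal muscle and 0 to 2 of 4 adipocyte markers had a strong peak. Strong peaks at the fibroblast markers summed to 10 to 12 per library, those at the keratinocyte markers to 4 to 5, at the endothelial to 8 to 9 and at the melanocyte and Schwann cell markers to 8 to 10. Krt14, Krt10, Cdh1, Tek, Erg, Itgam and Mitf had a strong peak in every library. Erg, with 5 to 7, and Mitf, with 7 to 8, made up most of the endothelial and the melanocyte and Schwann cell sums. Krt5, Krt1, Pecam1, Kdr, Csf1r, Adgre1, Sox10, Tyr, Myod1 and Myf5 had 0 in every library. Of fibroblast and keratinocyte markers, 6 of 10 and 4 of 8 had a strong peak in control. With vehicle this was 7 of 10 and 4 of 8. In Sod2-/- it was 5 of 10 and 5 of 8, and with rotenone 5 of 10 and 4 of 8. The marker share thus does not single out fibroblasts in Sod2-/- or rotenone. The part of other cell types in the results below was not tested.

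Of the members, Twist1 and Runx1 had a strong peak over a start of transcription, and the promoters under those peaks are shown here. The sequences are the 250 bases before each start, from RefSeq in build GRCm38.p6, the assembly behind mm10. They are written 5′ to 3′ on the strand of the gene, with capitals for every match of the motifs searched. Those motifs, searched on both strands, were AP-1 (TGANTCA), the E-box (CANNTG), RUNX (TGTGGT), the T-box (GGTGTG), a homeobox site (TAATTA), the GC box (GGGCGG) and the CCAAT box (CCAAT).
Twist1, chr12:33957421-33957670, plus strand: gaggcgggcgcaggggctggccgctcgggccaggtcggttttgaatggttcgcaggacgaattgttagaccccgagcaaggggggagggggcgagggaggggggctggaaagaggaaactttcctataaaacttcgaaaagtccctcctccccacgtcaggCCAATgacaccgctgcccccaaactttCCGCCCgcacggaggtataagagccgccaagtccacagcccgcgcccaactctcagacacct
Runx1, proximal start, chr16:92697330-92697579, minus strand: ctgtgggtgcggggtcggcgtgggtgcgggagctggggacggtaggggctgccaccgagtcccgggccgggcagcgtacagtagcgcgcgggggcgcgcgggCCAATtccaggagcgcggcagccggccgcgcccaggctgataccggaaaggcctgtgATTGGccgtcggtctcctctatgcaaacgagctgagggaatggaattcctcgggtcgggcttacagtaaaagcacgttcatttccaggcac

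The Twist1 sequence holds 1 CCAAT box and 1 GC box, and that of Runx1 holds 2 CCAAT boxes, 1 on each strand. The peak covered 249 of the 250 Twist1 bases in control, 243 in Sod2-/-, 250 with vehicle and 247 with rotenone, and 230, 179, 196 and 176 of the Runx1 bases. The GC content of these bases was 62.4% for Twist1 and 67.6% for Runx1.

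The table of promoters held 9 starts of 8 members, with 2 for Runx1; Tbx15 and Tcf4 are not in it. Each entry runs from 250 bases before a start to 50 after it. The CCAAT box was found in 6 of these 9 promoters, against 37.4% of the 32851 promoters of all genes. The GC box was found in 3 (Prrx2, Twist1, Twist2), against 35.7%, and the E-box in 4 (En1, Tbx18, Runx2 and the distal start of Runx1), against 72.3%. AP-1 letters were found at En1 alone, against 7.81%, homeobox letters at Prrx1 alone, against 5.29%, and T-box letters in 0, against 19.0%. Such a match is a description of the letters and not of a bound site.

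RUNX letters were found in 2 of the 9 promoters, against 16.8% of all promoters, and both belong to RUNX genes: the distal start of Runx1 and the start of Runx2. In each, 2 matches lie next to each other just after the start. The 30 bases around them, picked after the matches were seen, are given with the RUNX letters in capitals, read here on the opposite strand as ACCACA.
Runx1, distal start, chr16:92826025-92826054, minus strand, bases 21 to 50 after the start: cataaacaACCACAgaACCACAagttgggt
Runx2, chr17:44814583-44814612, minus strand, bases 16 to 45 after the start: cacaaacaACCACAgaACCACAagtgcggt

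The stretches of the 2 paralogs are the same at 27 of 30 bases. In the Runx2 stretch an E-box overlaps the second match. At least 2 RUNX matches after the start were found in 41 of the 32851 promoters, or 0.125%. Peaks at these starts were weak: within 1000 bp of the distal Runx1 start the best ranked peak had a fold of 3.72 in control, 3.04 in Sod2-/-, 4.65 with vehicle and 3.62 with rotenone. At the Runx2 start the folds were 2.94, 3.07, 3.85 and 4.08, and none of these 8 peaks was strong.

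The 10 loci held open chromatin at about the density of the genome, and most of it lay away from the gene starts. They held 41 strong peaks in control, 36 in Sod2-/-, 41 with vehicle and 38 with rotenone, which is 0.137% (95% Wilson interval 0.101-0.185), 0.12% (0.0867-0.166), 0.137% (0.101-0.185) and 0.127% (0.0923-0.174) of each list of 30000. Strong peaks made up 6.53%, 5.5%, 8.45% and 8.78% of all peaks at these loci, next to 6.93%, 5.13%, 8.82% and 8.63% of all peaks of each list. The median fold of the members' strong peaks was 6.64, 5.39, 6.65 and 6.00, and their median width 384, 293, 349 and 290.5 bp, each close to the median of the whole list given above. Their median rank was 18152 in control, 15143 in Sod2-/-, 18179 with vehicle and 15030.5 with rotenone, against 15000.5 in each strong list. They thus ranked somewhat lower than the list in control and vehicle.

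**Figure D1:**
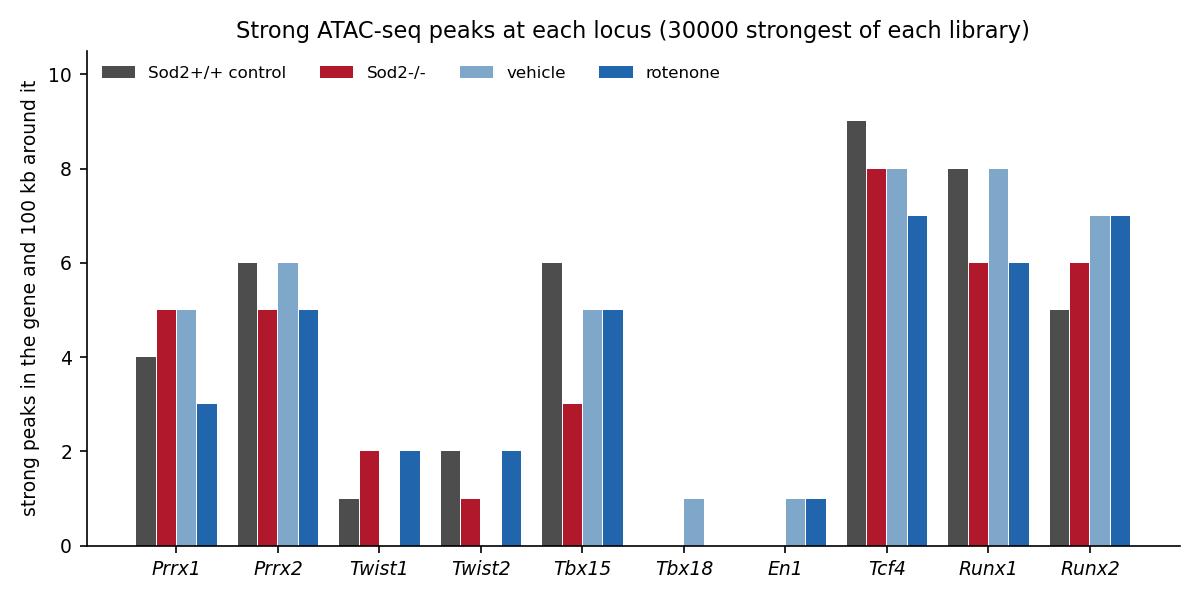
Bars give the number of strong peaks (the 30000 highest ranked of each library) inside each gene and within 100 kb of it, with 1 library per bar and no error bars. Tcf4 and Runx1 hold 6 to 9 in each library, while Tbx18 and En1 hold 0 or 1.

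The loci differed more from each other than any locus differed between libraries. Tcf4 held most strong peaks, with 9 in control, 8 in Sod2-/-, 8 with vehicle and 7 with rotenone, and Runx1 followed with 8, 6, 8 and 6. Runx2 had 5, 6, 7 and 7, Prrx2 6, 5, 6 and 5, Tbx15 6, 3, 5 and 5, and Prrx1 4, 5, 5 and 3. Twist1 (1, 2, 0 and 2) and Twist2 (2, 1, 0 and 2) had few. Tbx18 (0, 0, 1 and 0) and En1 (0, 0, 1 and 1) had almost none. Neighbours in this order overlap in their range over the libraries except between Prrx1, with 3 to 5, and the Twist loci, with 0 to 2. A protein-coding gene of the genome had a median of 4 strong peaks in the same kind of window in every library, and 13.2% to 13.9% of the 21887 genes had 0.

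Long genes have wide windows, so the order changes per length. Prrx2 was densest, with 2.54 strong peaks per 100 kb in control, 2.12 in Sod2-/-, 2.54 with vehicle and 2.12 with rotenone. The value over the genome was 1.10, but it counts the whole span of the chromosomes, also far from genes. By count in windows of the same kind, Prrx2 held more strong peaks than 63.8%, 51.9%, 63.4% and 50.9% of protein-coding genes. Tcf4 had 1.29 to 1.65 and Runx1 1.41 to 1.88, Runx2 had 0.964 to 1.35, and Tbx18 at most 0.438. The Prrx2 window also covers parts of 7 other protein-coding genes, more than any other member's, while those of Tcf4 and Tbx18 cover 0.

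The strong peaks of all libraries merged into 59 regions at the 10 loci. Of these, 35 lay inside the member gene, 2 within 1000 bp of a start of the member, 6 within 1000 bp of a start of another gene (Gorab, Ntmt1, Asb6, Wars2, Supt3 and the long noncoding RNA 2610027F03Rik), and 5 outside the member but inside another protein-coding gene. The same shares over all merged regions of the genome were not determined, and windows this wide lie mostly away from any start. A peak of some strength was present in all 4 libraries at each of the 59 regions. This is usual for lists of this length: in the pairs compared below, only 0.0867% to 0.943% of all strong peaks lacked any peak in the partner library. A peak in the window need not act on the member, and no contact or expression data were used here.

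**Figure D2:**
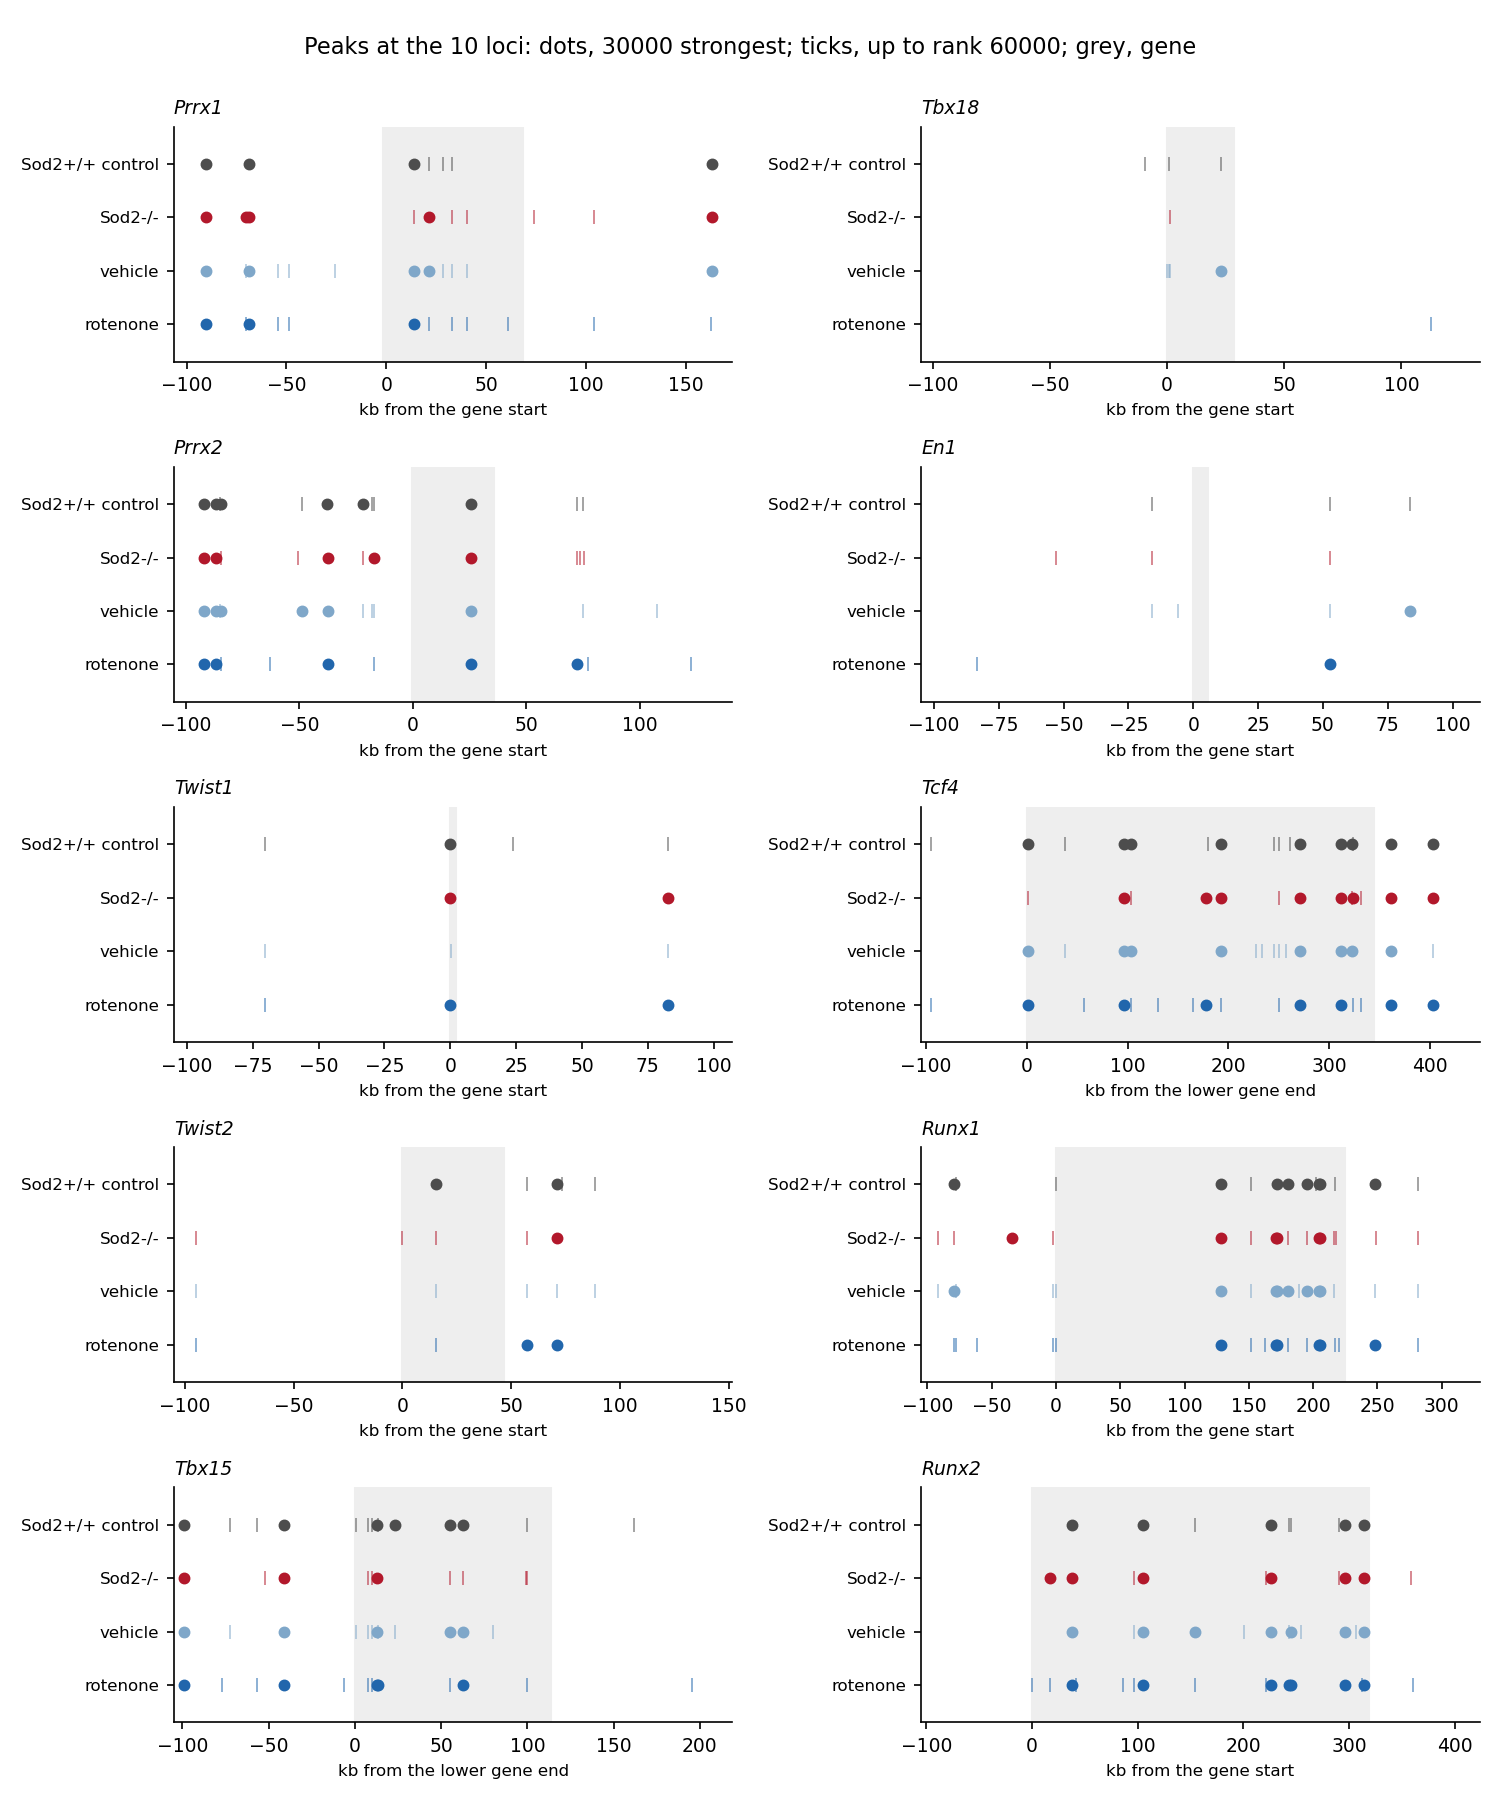
Each panel maps 1 locus, with distance in kb on the horizontal axis from the gene start along the gene (the most upstream start of Runx1; for Tbx15 and Tcf4 from the gene end of lower coordinate) and 1 line per library; dots are strong peaks, ticks the further peaks up to rank 60000, and grey the gene. Most columns of dots run through several libraries, and only Twist1 and Tcf4 have dots at zero; the proximal start of Runx1 lies to the right of its zero.

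At the gene starts, 2 of the 8 members with a listed start had a strong peak within 1000 bp in control, 2 in Sod2-/-, 1 with vehicle and 2 with rotenone. Among 17492 protein-coding genes with a listed start this was so for 38.3% in control, 38.5% in Sod2-/-, 38.2% with vehicle and 39.1% with rotenone. A peak of any strength was found at 8, 8, 7 and 8 of the 8 members, against 71.5%, 72.3%, 69.9% and 68.4% of those genes. The Twist1 peak had a fold of 6.08 in control, 5.43 in Sod2-/-, 5.40 with vehicle and 4.92 with rotenone, and with vehicle its rank of 30503 put it just below the strong list. The proximal Runx1 start was strong in each library, at folds of 6.53, 5.22, 7.69 and 6.66. It lies 128745 bp from the distal start, inside the gene, and is the only member start that was strong throughout.

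Tcf4, whose start is not in the table, had a peak within 1000 bp of its lower gene end with folds of 5.38 in control, 3.77 in Sod2-/-, 5.81 with vehicle and 4.57 with rotenone. It was strong in 3 libraries and ranked 38508 in Sod2-/-. At the lower end of Tbx15 the folds were 5.08, 2.72, 4.36 and 3.42, with ranks of 31694, 104017, 47748 and 68536, so none was strong. The start of Twist2 had folds of 3.61, 3.48, 3.81 and 3.34, that of Tbx18 4.03, 3.13, 4.94 and 3.37, and that of En1 3.47, 2.33, 3.76 and 3.07. Peaks at the starts of the Prrx genes were also weak: Prrx2 had folds of 2.30, 2.31, 2.42 and 2.56, and Prrx1 had 2.89, 2.45 and 3.35 in control, Sod2-/- and rotenone and no peak with vehicle.

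**Figure D3:**
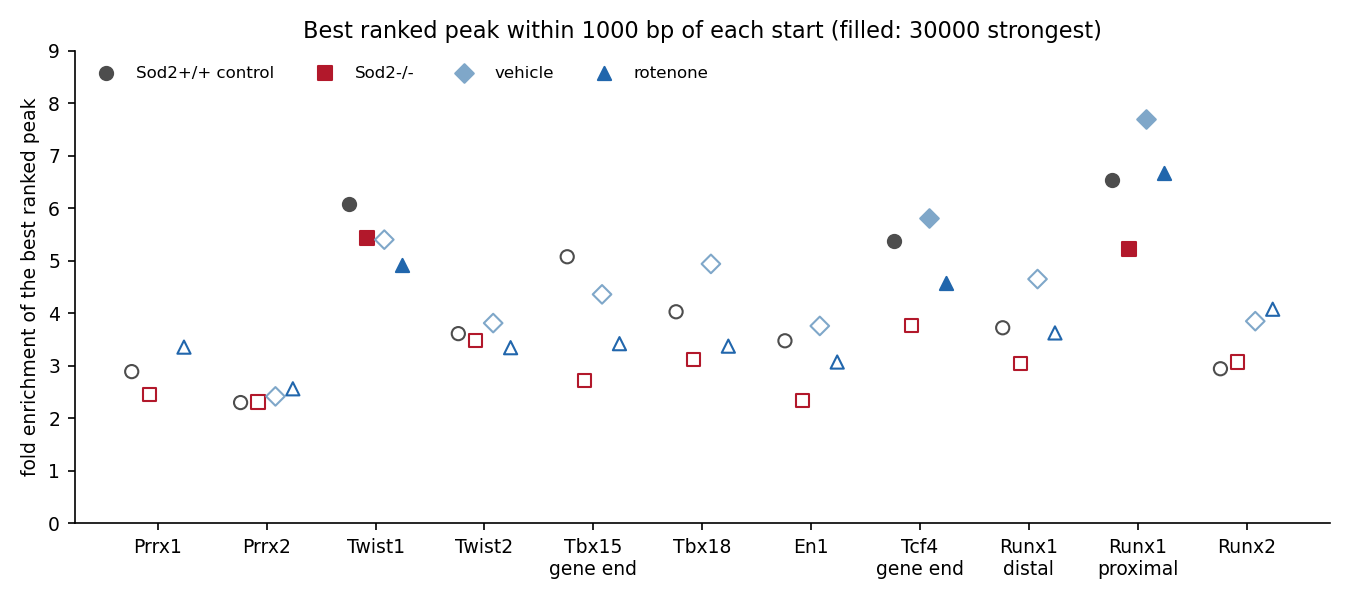
Points give the fold enrichment of the best ranked peak within 1000 bp of each start (Tbx15 and Tcf4: of the lower gene end), 1 point per library, filled where the peak is strong; a missing point means no peak. Only Twist1, Tcf4 and the proximal start of Runx1 have filled points, and the points of Prrx1 and Prrx2 lie at 2.30 to 3.35.

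Prrx1 (chromosome 1, 163245119-163315145) had strong chromatin inside the gene and far upstream of it. A region 67522 bp upstream, at 163382383-163382952, was strong in each library, and its folds were 7.02 in control, 6.00 in Sod2-/-, 6.99 with vehicle and 6.63 with rotenone. Next to it, at 163383683-163383901, a peak ranked 22608 in Sod2-/- (fold 4.73) and 68678 in control (fold 3.41), with 45825 with vehicle and 41684 with rotenone. A region over the start of the neighbour Gorab ranked best in the window in control and rotenone, though not in Sod2-/- or vehicle, with folds of 8.89, 5.25, 7.51 and 7.27. A region 94484 bp downstream, at 163150529-163150741, had folds of 6.69, 4.82, 8.43 and 4.57, and with rotenone its rank of 30646 fell just outside the strong list.

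Prrx2 (chromosome 2, 30845064-30881251) had 1 strong region inside the gene, at 30870654-30871388, with folds of 7.46 in control, 6.56 in Sod2-/-, 7.03 with vehicle and 6.14 with rotenone. Its best ranked region, at 30807312-30808217, covered the start of Ntmt1, which encodes a protein N-terminal methyltransferase, and had folds of 8.83, 7.08, 8.61 and 9.32. Another, 91646 bp upstream at 30753192-30753644, had folds of 8.48, 7.47, 8.50 and 8.19. These 3 regions were strong in every library. Of the weaker regions, 30796571-30796744, inside 1700001O22Rik, ranked 32621 in control, 102712 in Sod2-/-, 29891 with vehicle and 70043 with rotenone. The region at 30917668-30918023, inside the prostaglandin E synthase gene Ptges, ranked 53060, 58074, 67993 and 27723.

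Twist1 (chromosome 12, 33957671-33959831) had 1 strong region besides its start, at 34040153-34040407, which lies 80449 bp beyond the gene and outside protein-coding genes. Its folds were 4.11 in control, 6.20 in Sod2-/-, 5.29 with vehicle and 7.10 with rotenone, at ranks of 48885, 11955, 33307 and 10513. It was strong in Sod2-/- and rotenone and in neither of the other libraries, but their peaks there stayed among the 60000 highest ranked. Twist2 (chromosome 1, 91801461-91848034) had 3 strong regions. The one inside the gene, at 91816571-91817027, was strong in control (fold 6.64, rank 18152) and just under the strong list elsewhere, at ranks of 32196, 31700 and 30125. Another, 10417 bp beyond the gene at 91858246-91858657, was strong with rotenone only, with folds of 4.48, 3.37, 5.003 and 4.73. The third, 24620 bp beyond the gene at 91872421-91872887, ranked best of them in Sod2-/- and rotenone and had folds of 5.58, 5.69, 5.09 and 5.87.

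Tbx15 (chromosome 3, 99240348-99354260) had 6 strong peaks in control and 3 in Sod2-/-, with 5 each with vehicle and rotenone. The region at 99253002-99253449 inside the gene was strong throughout, with folds of 7.78 in control, 6.32 in Sod2-/-, 9.37 with vehicle and 6.19 with rotenone. At 99263523-99263913, also inside, the folds were 5.20, 2.71, 5.34 and 3.34, at ranks of 29716, 101984, 31630 and 69224. The regions at 99295408-99295587 (folds 5.67, 3.51, 6.04 and 3.80) and 99303197-99303401 (folds 6.51, 3.80, 6.09 and 5.25) were likewise strong in control and not in Sod2-/-.

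The window of Tbx15 also holds a peak that stands apart from all others at the 10 loci. It lies inside Wars2, a mitochondrial tryptophanyl-tRNA synthetase gene, at 99199196-99199398, and its folds were 50.9 in control, 51.8 in Sod2-/-, 53.6 with vehicle and 54.5 with rotenone, at ranks of 16, 18, 17 and 16. Its start, end and width of 203 bp were the same in every library, and it overlaps the annotated microRNA gene Mir6481 (99199344-99199453). Its origin was not tested. The next best ranked region of the window was at Tbx15 itself with vehicle, at rank 5254.

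Tbx18 (chromosome 9, 87702800-87731260) had a single strong region, inside the gene at 87708286-87708418, and it was strong with vehicle only. Its folds were 5.12 in control, 3.12 in Sod2-/-, 6.45 with vehicle and 2.69 with rotenone, at ranks of 31921, 64605, 21642 and 200181. En1 (chromosome 1, 120602487-120607991) had 2 strong regions, both outside the gene. The one at 120685990-120686107 lies within 1000 bp of a listed start of 2610027F03Rik, inside the span of that gene. Its folds were 3.71, 2.71, 6.25 and 2.68, at ranks of 58512, 106882, 22804 and 202036. The other, 47312 bp beyond the gene at 120655213-120655394, was strong with rotenone (fold 4.59) and had folds of 4.09, 3.49 and 5.11 in control, Sod2-/- and vehicle.

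Tcf4 (chromosome 18, 69343429-69687967) carried its strong regions over the whole length of the gene. Those at 69440167-69440575, 69614160-69614629 and 69655400-69655746 were strong in each library. The first had folds of 8.24 in control, 8.17 in Sod2-/-, 8.05 with vehicle and 7.51 with rotenone. The last had folds of 10.1 in control, 7.19 in Sod2-/-, 9.78 with vehicle and 8.74 with rotenone. Beyond the upper gene end, at 69704650-69705114, a region strong throughout had folds of 5.63 in control, 9.49 in Sod2-/-, 6.65 with vehicle and 9.57 with rotenone, at ranks of 22952, 3455, 18866 and 4525, so it ranked higher in Sod2-/- and rotenone than in their controls.

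Tcf4 also held both the strongest lost and the best ranked gained region of these loci. At 69666358-69666935 the folds were 8.20 in control, 3.62 in Sod2-/-, 8.11 with vehicle and 2.98 with rotenone, at ranks of 11224, 41071, 13077 and 116373. At 69521335-69521584 they were 3.56, 4.78, 3.79 and 5.94, at ranks of 65310, 22068, 68047 and 16938. In both regions the Sod2+/+ control and vehicle libraries lay close together, and Sod2-/- and rotenone lay on the same side of them. Sod2-/- and rotenone also lay on the same side of control and vehicle by rank at every other region called below, except the one inside Ptges.

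Runx1 (chromosome 16, 92601466-92826074) had strong regions inside and outside the gene. Those inside all lay at or downstream of the proximal start. Those outside lay 23878 bp downstream and 34469 and 79716 bp upstream of the gene. At 92620733-92621047 the folds were 7.91 in control, 8.82 in Sod2-/-, 8.16 with vehicle and 9.73 with rotenone, and the ranks of 7457, 4236, 8369 and 3108 were the best of the locus. At 92653824-92655018 they were 7.06, 6.23, 7.36 and 6.99. The regions at 92630977-92631326 (folds 6.65, 4.14, 7.18 and 3.73), 92645730-92646111 (folds 5.19, 3.64, 5.38 and 4.34) and, 79716 bp upstream of the gene, 92905689-92905891 (folds 5.89, 3.81, 5.60 and 3.91) were strong in control and vehicle and in neither other library. A narrow peak 34469 bp upstream, at 92860502-92860585, had folds of 2.76, 4.96, 2.50 and 3.48, at ranks of 130180, 21517, 267050 and 63185.

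Runx2 (chromosome 17, 44495987-44814797) held a high ranked region at 44500177-44500840, near the downstream end, whose control rank was the best of any peak inside a member gene. Its folds were 12.2 in control, 8.51 in Sod2-/-, 11.2 with vehicle and 8.13 with rotenone, at ranks of 1121, 3566, 1977 and 5634. At 44709641-44710275 the folds were 7.30, 6.63, 5.70 and 6.07, and at 44518277-44518535 they were 7.71, 5.78, 9.15 and 5.33. At 44776813-44777201 a region strong throughout lay within 1000 bp of a start of Supt3, a gene of the SAGA complex that overlaps Runx2. At 44797539-44797741, inside both genes, the folds were 3.13, 4.40, 3.55 and 4.21, at ranks of 88959, 27002, 76820 and 38183.

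Compared over all libraries, 22 of the 59 regions (37.3%, 95% Wilson interval 26.1-50.05) were strong in all 4, against 46.1% of the 42457 merged strong regions of the genome. A further 17 (28.8%, 18.8-41.4) were strong in 1 library only, against 23.8%. Both genome shares lie inside the members' intervals. Strong in control and vehicle only were 7 regions (11.9%, 5.87-22.5, against 7.52%), of which 3 at Runx1, 2 at Tcf4, and 1 each at Prrx2 and Tbx15. Strong in Sod2-/- and rotenone only were 2 (3.39%, 0.935-11.5, against 6.18%), the one beyond Twist1 and the one inside Tcf4. The members are thus not set apart from the genome in either pattern.

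In Sod2-/-, 4 of 36 strong peaks at these loci were gained and 1 of 41 was lost. A strong peak is called gained or lost where it overlaps none of the 60000 highest ranked peaks of its partner library. The gained peaks were those described above inside Tcf4 (69521335-69521584) and Runx2 (44797539-44797741) and upstream of Runx1 (92860502-92860585) and Prrx1 (163383683-163383901). The lost one lay inside Tbx15 (99263523-99263913). The gained share was 11.1% (95% Wilson interval 4.41-25.3) against 5.33% of all strong Sod2-/- peaks, and the lost share 2.44% (0.432-12.6) against 6.76% of all strong control peaks. These genome shares lie inside the members' intervals, so neither share is set apart. The excess of gains turned with longer lists: among the 60000 strongest peaks of each list, 8 of 81 were gained, against 12.1% of all, and 12 of 87 lost, against 14.0%. Ranked by fold enrichment, 5 of 37 were gained, against 5.86%, and 4 of 44 lost, against 7.69%.

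With rotenone, 2 of 38 strong peaks were gained and 4 of 41 strong vehicle peaks were lost. The gained peaks lay inside Tcf4 (69521345-69521552) and inside Ptges near Prrx2. The lost ones lay inside Tcf4 (69666396-69666926) and Tbx18 (87708286-87708418), 78057 bp beyond En1, and 48407 bp upstream of Prrx2. The gained share was 5.26% (95% Wilson interval 1.46-17.3) against 6.81% over all strong rotenone peaks, and the lost share 9.76% (3.86-22.5) against 8.04% over all strong vehicle peaks. Vehicle against control called 0 of 41 in each direction, which allows up to 8.57% by the Wilson interval, with 1.03% gained and 0.847% lost over all strong peaks. The excess of losses turned with the 60000 strongest peaks, with 17 of 95 gained, against 15.6% of all, and 15 of 96 lost, against 16.5%.

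**Figure D4:**
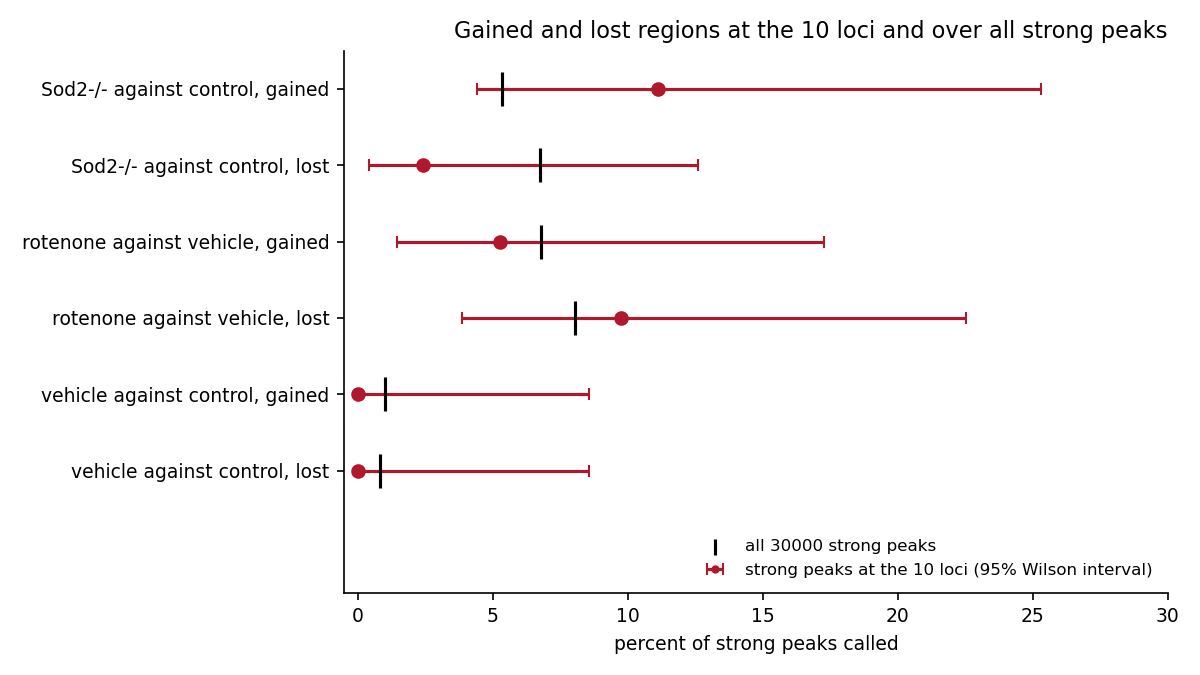
Dots give the percent of strong peaks at the 10 loci called gained or lost in each comparison, with 95% Wilson intervals for counting error, and black bars the percent over all 30000 strong peaks of the same library. Every black bar lies inside the members' interval.

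None of these peaks was gained or lost outright. Requiring that the partner library hold no peak of any strength left 0 member calls in each of the 6 directions, against 0.243% gained and 0.343% lost over all strong peaks in Sod2-/-, 0.773% and 0.943% with rotenone, and 0.11% and 0.0867% for vehicle against control. Several calls also sat near the edge of the strong list: the Tbx15 peak ranked 29716 in control, and the peak upstream of Prrx2 ranked 29891 with vehicle. The lists of Sod2-/- and rotenone had lower folds and narrower peaks than their partners over all strong peaks, and the part of this in the calls was not tested.

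The Tcf4 region at 69521335-69521584 was the only one called in both comparisons, as 1 of the 4 Sod2-/- gains and 1 of the 2 rotenone gains. These comparisons share no library. The share of all calls of the genome made in both was not determined, so this overlap cannot be set beside the genome. At 10 of the 11 calls the other pair of libraries was ranked in the same order as the pair in which the call was made. The exception was the rotenone gain inside Ptges, which ranked 58074 in Sod2-/- and 53060 in control. Over all 8082 calls of the genome the same order held for 86.5%, so the members follow the whole list here.

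**Figure D5:**
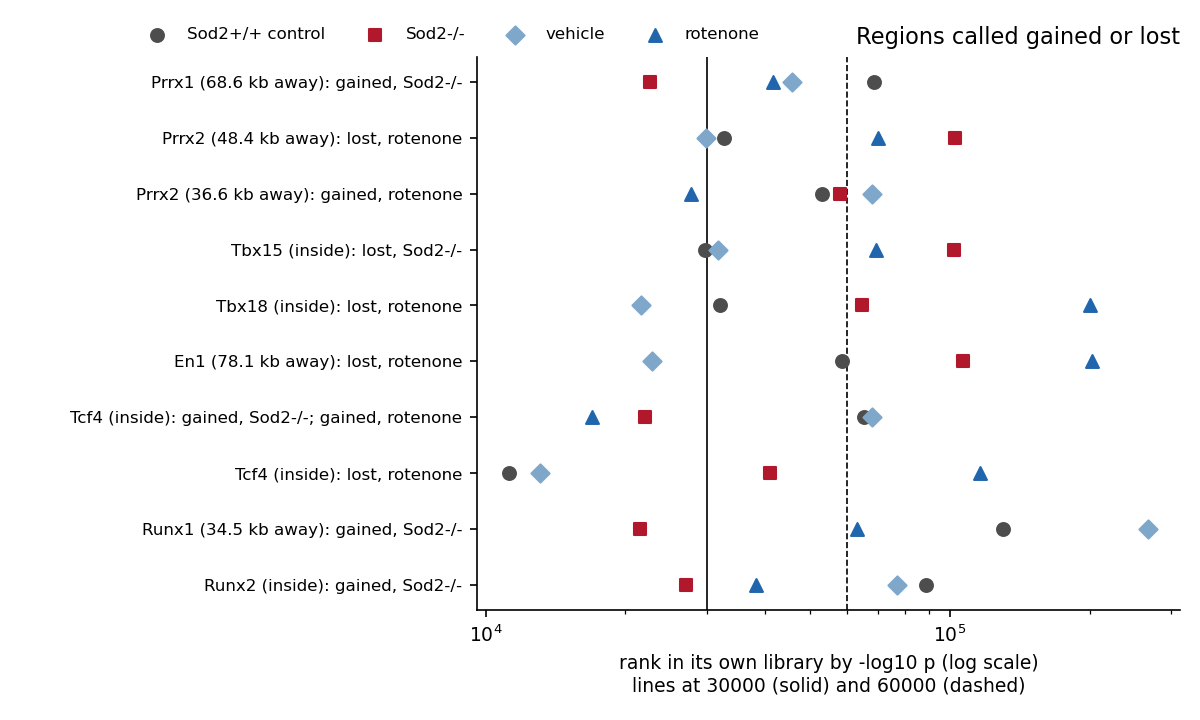
Each row is 1 of the 10 regions called gained or lost, and the points give the rank of the best peak there in each library on a log axis, with lines at 30000 and 60000; a lower rank is a stronger peak. Sod2-/- and rotenone points lie on 1 side of control and vehicle in every row but 1, the Prrx2 region 36.6 kb from the gene, where the rotenone point stands alone.

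Partners and other mesenchymal factors were described from a list of 41 genes, all of them found in the gene table: E-proteins and their ID inhibitors, RUNX3 and the RUNX partner CBFB, and other homeobox, forkhead, T-box and SOX factors. Some of their windows overlap, and a peak in 2 windows was counted once here. In Sod2-/- 13 of 161 strong peaks near them were gained (8.07%, against 5.33% of all), at 11 genes, and 13 of 157 lost (8.28%, against 6.76%), at 11 genes. With rotenone 15 of 150 were gained (10%, against 6.81%), at 12 genes, and 19 of 154 lost (12.3%, against 8.04%), at 17 genes. Vehicle against control gained 1 of 154, at Runx3 (0.649%, against 1.03%), and lost 1 of 157, at Tbx3 (0.637%, against 0.847%). The shares in Sod2-/- and rotenone lay above those of the genome, and whether by more than counting error was not tested.

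Among those related genes, Tcf3, which encodes another E-protein, gained 2 regions in Sod2-/- and 2 with rotenone and lost 0. Klf4 and Tcf21 also gained 2 each in Sod2-/-, where Klf4 lost 1. The tendon factor gene Scx gained 3 with rotenone and Foxc2, whose window overlaps that of Foxf1, gained 2. Snai1, the gene of a repressor of the epithelial state, lost 3 in Sod2-/- and gained 1. Tbx3 lost 1, a control peak of rank 10299 and a fold of only 1.98. The same peak was called lost in vehicle against control, so this loss was not particular to Sod2-/-. The Runx3 gain of vehicle against control was a vehicle peak of rank 968 and a fold of only 1.80. That vehicle peak was also called lost with rotenone, so vehicle differed from control at this loss too. Tcf12 lost 1 and gained 1 in Sod2-/-. With rotenone, Id1, an inhibitor of E-proteins, Nfatc4 and Tbx2 lost 2 each. Cbfb had 8 to 11 strong peaks near it in each library and no call in any comparison.

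The edge of the window decided whether strong regions close to it were counted. Just inside it, 98978 bp from Tbx15 and over a start of Wars2, a region had folds of 9.79 in control, 5.35 in Sod2-/-, 9.53 with vehicle and 6.85 with rotenone. Just outside it, 100971 bp from Prrx2, a region had folds of 9.49, 9.75, 10.8 and 11.0.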

How the data were processed

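Nuclei of dermal fibroblasts were tagmented with Tn5 and sequenced as paired ends, per the labels' protocols. Bowtie2, bedtools, MACS2 and HOMER, and build mm10, were used per the submitters' processing notes; the sources used here give no versions, settings or Tn5 shift. Each library has its own peak list, which the authors deposited without a header. The authors deposited fold enrichment (a ratio over local background) and −log10 p and q, read from columns 7 to 9 in the order MACS2 writes; the lowest −log10 q was just above 1.

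Starts were made 1-based. Ranks used −log10 p, with ties by fold. Genes came from RefSeq GRCm38.p6 and starts and promoters from its promoter table. Exons and introns were not used here. The lymphocyte marker list is not reported here. Named are all 10 members; called regions, the 3 per member with the best rank in any library and, chosen after seeing values, regions strong in some libraries only; and up to 3 related genes per comparison and direction. Members, lists and the definition of a call were chosen with earlier results of these data known. The overlap code was tested on planted changes. Analyses used matplotlib 3.10.9, scipy 1.17.1, pandas 2.3.3, numpy 2.4.6 and Python 3.11.15. Alternatives were list length, ranking, overlap, window and partner threshold.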

Additional observations from a re-analysis of the deposited data

How the results depend on the processing

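Counts of calls depended on the processing; with 1 library per group, leaving out replicates was not possible. Among the 60000 strongest peaks (partner list 120000), calls in Sod2-/- were 8 of 81 gained and 12 of 87 lost (over all strong peaks 12.1% and 14.0%), with rotenone 17 of 95 and 15 of 96 (15.6% and 16.5%), and for vehicle against control 3 of 96 and 3 of 87 (4.08% and 3.45%). Among the 15000 strongest, 1 of 18 was gained in Sod2-/- (4.9% of all), and 1 of 18 gained (5.52%) and 2 of 16 lost (6.09%) with rotenone. Ranking by fold enrichment gave 4 of 44 lost in Sod2-/- (7.69%). Inside the gene span 2 of 20 were gained in Sod2-/- (5.33% of all), and 1 of 23 gained (6.81%) and 2 of 28 lost (8.04%) with rotenone, and the shares of the strong list fell to 0.0833% in control, 0.0667% in Sod2-/-, 0.0933% with vehicle and 0.0767% with rotenone, as the window is smaller. Requiring no partner peak of any strength, or none with −log10 q of at least 2, left 0 calls in both directions for Sod2-/- and rotenone. The other 68 of 93 values stayed within 1.5 times the count, or inside the interval of the share. Of 9 alternatives, the loss inside Tcf4 was still called in 6, its gain in 5 for Sod2-/- and 5 for rotenone, the Tbx18 loss in 6, and the En1 loss and the Prrx1 gain in 3 each. These counts overstate stability. At the Tcf4 and Tbx18 regions, 50% overlap, narrower windows and leaving out other starts could not remove a call. Among the remaining settings the Tcf4 gains were kept only when ranked by fold. The Tcf4 loss was kept by that ranking and with the 15000 strongest peaks. The alternative without peaks over starts of other genes was added after seeing the data. Depth is unknown, so peaks missing from a list may only be below its threshold.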
